A study of Mus musculus with 12 samples.

Results

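The 7 genes described here encode receptors through which hypothalamic and pineal signals restrain pituitary hormone cells: the somatostatin receptor genes Sstr1, Sstr2, Sstr3 and Sstr5, the dopamine receptor genes Drd2 and Drd4, and the melatonin receptor gene Mtnr1a. They were chosen by name and are 7 of the 27129 genes in the per-library expression table. Pituitary glands of newborn mice (postnatal day 0), freed of the posterior lobe, were sequenced as 12 RNA libraries that the series design calls individual samples. The 6 libraries labelled mutant came from Prop1cre;Isl1fx/- animals, with 1 floxed and 1 null allele of Isl1, a LIM-homeodomain transcription factor gene. The 6 control libraries came from Prop1cre;Isl1+/fx animals, which carry the same Cre transgene and 1 floxed allele, so that neither group is without Cre or without a floxed allele. The transgene drives Cre recombinase in pituitary progenitors. By these genotypes the comparison there sets loss of both Isl1 copies against loss of 1 copy in the controls. The null allele is also present outside the pituitary of the mutant animals, and its part in the results was not tested. Since each library is a whole gland extract, fewer cells of a type and less RNA per cell cannot be told apart. All p-values refer to the spread among these 12 samples.

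All of these receptors couple mainly to inhibitory G proteins of the Gi/o class, which lower cyclic AMP and, in many cells, open potassium channels. Somatostatin restrains the release of growth hormone and thyrotropin, and dopamine restrains prolactin release from lactotropes and the secretory activity of melanotropes. Melatonin acts on gonadotropes of newborn rats, where it dampens the luteinizing hormone response to gonadotropin-releasing hormone (GnRH), and this response is lost as the animal matures.

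The table's intervals of the genes, on mm10 with starts written 1-based, were set against the GENCODE annotation. Mtnr1a lies at chr8:45069210-45088506 on the plus strand, and its interval holds 96.4% of the annotated exon bases. Sstr3 lies at chr15:78537015-78544345 on the minus strand and Sstr5 at chr17:25489875-25497288 on the minus strand, with 92.0% and 100% of their exon bases inside. Sstr1 lies at chr12:58211804-58216036 on the plus strand, with 98.4% inside. For Drd2 (chr9:49340662-49407214, plus), Drd4 (chr7:141292006-141295001, plus) and Sstr2 (chr11:113624257-113625636, plus) the shares were 60.8%, 56.7% and 64.4%, so part of the annotated transcript of these 3 genes was outside the counted interval. The Sstr2 interval is within the gene Slc39a11, but no exon of another annotated gene and no other row of the table overlapped any of the 7 intervals.

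RefSeq (GRCm38.p6) gave promoter entries for 5 of the 7 genes. Those of 2 genes are shown, each as the 250 bases before the RefSeq start, 5′ to 3′ on the gene's strand. Mtnr1a is shown because it is the member whose groups did not overlap, and Sstr2 because its window is the one among the members that held any of the motifs searched. Capitals mark these motifs.
Mtnr1a, chr8:45068857-45069106, plus strand: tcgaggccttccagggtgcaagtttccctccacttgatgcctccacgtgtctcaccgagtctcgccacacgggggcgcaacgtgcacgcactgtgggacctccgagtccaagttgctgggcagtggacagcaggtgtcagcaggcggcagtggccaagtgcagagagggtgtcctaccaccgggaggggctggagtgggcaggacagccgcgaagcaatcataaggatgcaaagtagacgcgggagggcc
Sstr2, chr11:113619077-113619326, plus strand: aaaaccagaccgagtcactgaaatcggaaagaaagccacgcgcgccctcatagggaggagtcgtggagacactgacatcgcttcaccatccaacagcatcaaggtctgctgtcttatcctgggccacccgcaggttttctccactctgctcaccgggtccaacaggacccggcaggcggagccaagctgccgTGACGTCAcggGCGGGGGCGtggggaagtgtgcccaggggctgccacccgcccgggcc
In these windows 6 motifs were searched on both strands. The letters TAATCC stood for the sites of bicoid-type homeodomain factors such as the pituitary PITX proteins. The homeodomain core, TAAT, is contained in that motif. Sites of the gonadotrope regulator steroidogenic factor 1 were read as AGGTCA, and sites of EGR1, which acts on the luteinizing hormone beta gene, as GCGGGGGCG. The cyclic AMP response element was read as TGACGTCA. The TATA box was read as TATAAA. The Sstr2 window held TGACGTCA from base -58 to -51 and GCGGGGGCG from -47 to -39, counted back from the start. Of all 32851 promoter entries, 1.55% held TGACGTCA and 2.57% held GCGGGGGCG. The bicoid-type motif was in 6.25% of the entries, the homeodomain core in 54.9%, the steroidogenic factor 1 motif in 14.0% and the TATA box in 12.4%. None of the 6 motifs was found in the Mtnr1a window. Both windows had a GC content of 63.6%, against a median of 52.4% over all entries.

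Libraries labelled mutant held 45415449 to 61533577 fragments and control libraries held 46204924 to 51535431. Isl1 had 59.3 ± 4.98 CPM (fragments relative to the TMM-scaled total of the tested genes) in the libraries labelled mutant and 35.4 ± 3.04 CPM in the controls (SD, n = 6 each), and its log2 fold change was 0.74 (edgeR adjusted p = 8.71e-06). This gene-level count pools all exons and does not settle the labels, so that the groups are named as labelled. Next to no Y-linked fragments (summed FPKM of 4 genes under 1) were found in the libraries labelled mutant 0 and 3 and in control 4. Markers of all 6 hormone cell types were detected, and all 7 pituicyte markers of the posterior lobe were above the level filter, at a sum of 654 to 775 CPM in the libraries labelled mutant and 680 to 828 CPM in the controls. Of 7 tested stratified epithelium markers 7 were higher (sum 56.4 to 123 CPM in the libraries labelled mutant, against 12.4 to 17.6 CPM in controls). Of 7 multiciliated cell markers 7 were higher (113 to 212 CPM, against 64.0 to 71.9 CPM in controls). Among all genes tested 4.3% were higher. The 6 libraries labelled mutant alone can meet the level filter (FPKM of 1 or more in 6 or more libraries). For markers near 0 in controls, such as Krt5 (0.419 CPM) and Tmem212 (0.109 CPM), the filter thus partly set these counts. The part of the epithelial, multiciliated and posterior lobe cells in the receptor results was not tested.

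In the libraries labelled mutant the melatonin receptor gene Mtnr1a fell to 3.53 CPM, against 7.78 CPM in controls, and the somatostatin receptor gene Sstr3 fell to 18.2 CPM, against 26.2 CPM in controls. The other members did not pass the test. Sstr5 averaged 2.55 CPM in the libraries labelled mutant and 4.78 CPM in controls with a wide spread among the controls. The 2 most abundant of the others by CPM, Drd2 and Sstr1, had group means within 7.49% of each other. Levels are TMM-scaled CPM, and the test was edgeR's quasi-likelihood test with Benjamini-Hochberg adjustment over 15246 genes with FPKM (fragments per kilobase of transcript and per sequencing depth) reaching 1 or more in 6 or more libraries.

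Of the 7 members, 5 passed this level filter and 2 (Sstr2 and Drd4) did not. Lower calls were made for 2 of the 5 and higher calls for 0. Among all genes tested 2.75% were called lower and 4.3% higher, or 7.05% in either direction. The log2 fold change, libraries labelled mutant over controls, was negative in all 7 members, as it was in 51.4% of all genes tested. Its median over the 5 tested members was -0.53, and over all genes tested it was -0.0036. These counts describe genes chosen with earlier results known.

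**Figure D1:**
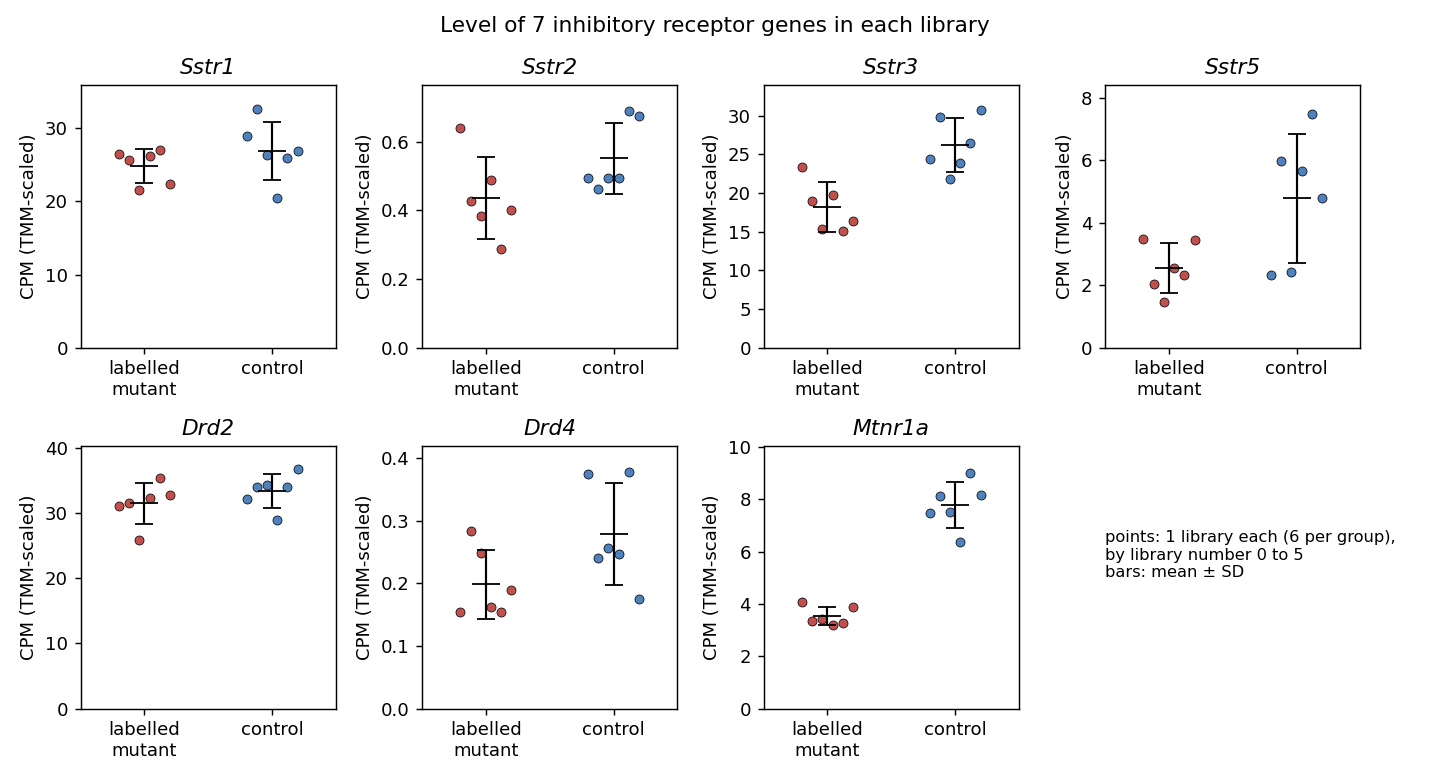
TMM-scaled CPM of each of the 7 receptor genes in every library, with the 6 libraries labelled mutant on the left and the 6 controls on the right of each panel; each point is 1 library and bars are mean ± SD. Mtnr1a is the one gene whose groups do not overlap (3.18 to 4.06 CPM in the libraries labelled mutant, 6.38 to 9.01 CPM in controls), and the controls of Sstr5 fall into a low pair and a higher 4.

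Mtnr1a encodes the MT1 melatonin receptor. It had a lowest value of 3.18, a median of 3.39 and a highest value of 4.06 CPM in the libraries labelled mutant, against 6.38, 7.82 and 9.01 CPM in the controls. Every library labelled mutant was below every control, which was the case for 1.37% of all genes tested, while 2.91% stood above every control in the same way. The mean was 3.53 ± 0.353 CPM in the libraries labelled mutant and 7.78 ± 0.881 CPM in controls (SD, n = 6 each), 54.7% lower. The log2 fold change was -1.14 with a standard error of 0.0927 (edgeR adjusted p = 6.70e-06), and -1.11 without the 3 libraries with next to no Y-linked fragments (edgeR adjusted p = 8.58e-05). These levels rest on 149 to 205 fragments per library labelled mutant and 310 to 406 per control. The spread within a group was narrow, with a coefficient of variation of 10.0% in the libraries labelled mutant and 11.3% in controls. In the authors' deposited table Mtnr1a had an FPKM of 2.63 in the mutant group and 5.77 in the control group, a log2 fold change of -1.14 and a q-value of 0.0012, and was marked as different.

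Mtnr1a was set beside Gnrhr, the GnRH receptor gene that marks gonadotropes. Gnrhr had 0.749, 0.986 and 1.18 CPM (lowest, median, highest) in the libraries labelled mutant, against 3.44, 7.71 and 13.9 CPM in the controls. It averaged 0.970 ± 0.177 CPM in the libraries labelled mutant and 7.75 ± 3.99 CPM in controls (SD, n = 6 each), with a log2 fold change of -2.99 (edgeR adjusted p = 5.71e-05). Both receptor genes were lower, by unequal amounts. The log2 ratio of Mtnr1a to Gnrhr fragments was 1.87 ± 0.308 in the libraries labelled mutant and 0.17 ± 0.690 in controls (SD, n = 6 each), with no overlap between the groups. The difference was 1.70, a ratio 3.24 times higher in the libraries labelled mutant (exact two-sided permutation test p = 0.00216, the smallest it can give, and 0.0173 after Benjamini-Hochberg adjustment over the 8 values tested this way). Among the controls Gnrhr varied far more than Mtnr1a, with coefficients of variation of 51.4% and 11.3%. Over the gonadotrope marker list 4 of 8 tested genes were lower and 0 higher, against 2.75% lower and 4.3% higher among all genes tested. The 4 were Cga, Chga, Gnrhr and Nr5a1, and Cga is also in the thyrotrope list. Uncalled markers had log2 fold changes between -2.85 and 0.01. The summed level was 1175 to 1338 CPM in the libraries labelled mutant and 1728 to 2427 CPM in controls. Most of this sum was Chga alone, which averaged 1133 CPM in the libraries labelled mutant and 1550 CPM in controls. No marker was at 0 throughout. The part of gonadotrope number in the Mtnr1a result was not tested.

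**Figure D2:**
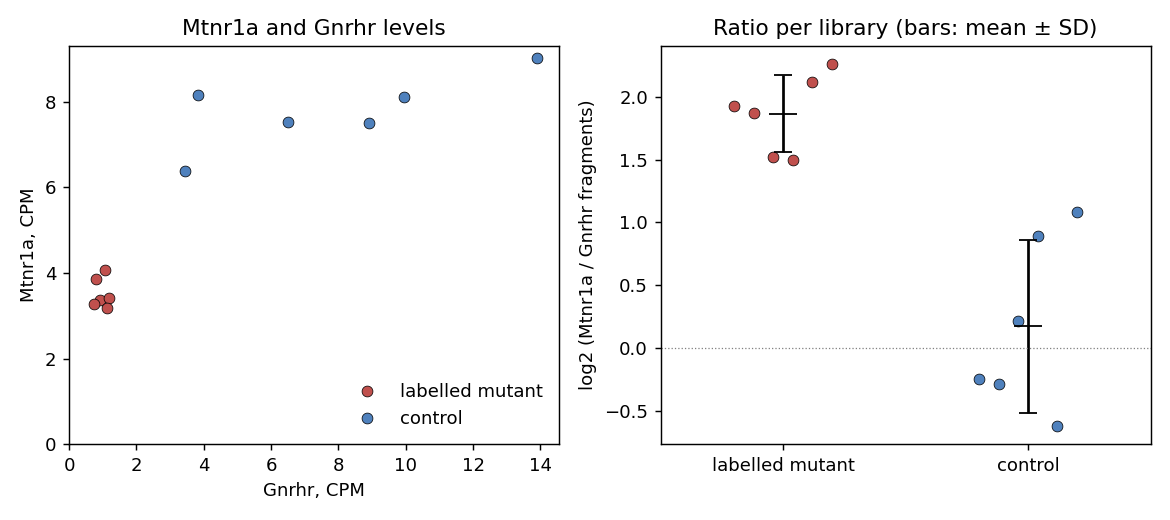
Left, CPM of Mtnr1a (vertical axis) against CPM of Gnrhr (horizontal axis) in each of the 12 libraries; right, the log2 ratio of their fragments per library, libraries labelled mutant left of controls, with bars for mean ± SD (n = 6 each). Controls spread along the Gnrhr axis from 3.44 to 13.9 CPM while their Mtnr1a stays between 6.38 and 9.01 CPM, and the lowest ratio of the libraries labelled mutant is above the highest control, at 1.09.

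Sstr3 encodes a somatostatin receptor known from rodent neurons as a protein of the primary cilium. Its lowest, median and highest values were 15.1, 17.7 and 23.4 CPM in the libraries labelled mutant and 21.8, 25.5 and 30.7 CPM in the controls. The groups overlapped through the library labelled mutant 0, at 23.4 CPM, and 5 of the 6 libraries labelled mutant were below the lowest control. The mean was 18.2 ± 3.20 CPM in the libraries labelled mutant and 26.2 ± 3.51 CPM in controls (SD, n = 6 each), 30.6% lower. The log2 fold change was -0.53 with a standard error of 0.114 (edgeR adjusted p = 0.0134), and -0.66 without the 3 libraries with next to no Y-linked fragments (edgeR adjusted p = 0.00805). In the authors' deposited table the q-value of Sstr3 was 0.0012, but the gene was not marked, as its log2 fold change of -0.54 was under the fold of 1.5 required there. Relative to Sstr1 the gene was also lower: the log2 ratio of Sstr3 to Sstr1 fragments was -0.46 ± 0.214 in the libraries labelled mutant and -0.03 ± 0.214 in controls (SD, n = 6 each), a difference of -0.43 (exact two-sided permutation test p = 0.00649, adjusted 0.0173). Relative to Gh, the growth hormone gene, the log2 ratio of Sstr3 differed by -0.38 (exact two-sided permutation test p = 0.0195, adjusted 0.0312). Both ratios were added after the values had been seen. They reuse the Sstr3 values, so their p-values are no separate support for the Sstr3 call.

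Sstr5 encodes a somatostatin receptor found on somatotropes and other hormone cells, and it varied most within the groups, with a coefficient of variation of 30.9% in the libraries labelled mutant and 42.9% in controls. Its lowest, median and highest values were 1.48, 2.45 and 3.47 CPM in the libraries labelled mutant and 2.33, 5.23 and 7.48 CPM in the controls. Controls 0 and 2, at 2.33 and 2.42 CPM, lay among the libraries labelled mutant, while the other 4 controls, from 4.80 CPM upward, lay above all of these. The mean was 2.55 ± 0.789 CPM in the libraries labelled mutant and 4.78 ± 2.05 CPM in controls (SD, n = 6 each), and the log2 fold change was -0.91 with a standard error of 0.296 (edgeR adjusted p = 0.0848). The gene therefore did not pass. With 1 library left out it passed in 2 of 12 fits, those without control 0 or control 2, the lowest controls (edgeR adjusted p = 0.0355 and 0.0422). It passed under DESeq2 (DESeq2 adjusted p = 0.0236) but not under limma (limma adjusted p = 0.156 and 0.166). Without the 3 libraries with next to no Y-linked fragments it did not pass (edgeR adjusted p = 0.211). The authors' deposited table marked Sstr5, with an FPKM of 0.999 in the mutant group and 1.88 in the control group, a log2 fold change of -0.91 and a q-value of 0.0012. Neither of its 2 listed transcripts was marked there, with q-values of 0.221 and 0.605. The log2 ratio of Sstr5 to Gh differed by -0.68 between the libraries labelled mutant and controls (exact two-sided permutation test p = 0.0476), which did not hold after adjustment (0.0635).

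Sstr1 encodes another of the somatostatin receptors. It had 21.5, 26.0 and 27.0 CPM (lowest, median, highest) in the libraries labelled mutant and 20.5, 26.6 and 32.6 CPM in the controls. The groups overlapped almost throughout. The log2 fold change was -0.11 with a standard error of 0.0951 (edgeR adjusted p = 0.535). A miss at this threshold does not show that the groups were alike.

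Sstr2, which encodes the somatostatin receptor of somatotropes and thyrotropes best known from the action of octreotide, was near the limit of detection. It had 13 to 30 fragments per library labelled mutant and 23 to 31 per control. Its level was 0.437 ± 0.119 CPM in the libraries labelled mutant and 0.551 ± 0.102 CPM in controls (SD, n = 6 each). In the fit without the level filter, over 24285 genes of which 2.08% were called lower, the log2 fold change was -0.34 with a standard error of 0.198 (edgeR adjusted p = 0.389). Its log2 ratio to Gh differed by -0.20 between the libraries labelled mutant and controls, and that to Tshb, the thyrotropin beta subunit gene, by 0.23 (exact two-sided permutation tests p = 0.338 and 0.320, adjusted 0.338 for both). All 4 tested thyrotrope markers were lower, against 2.75% of all genes tested, while 0 of 7 somatotrope markers passed in either direction. The summed thyrotrope level was 288 to 385 CPM in the libraries labelled mutant and 509 to 886 CPM in controls. It includes Cga, also in the gonadotrope list, at 64.5 CPM in the libraries labelled mutant and 318 CPM in controls. For Tshb and Trhr the groups overlapped.

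The members Sstr1, Sstr2, Sstr3 and Sstr5 were summed per length. Their sum was 10.6, 12.5 and 15.6 FPKM (lowest, median, highest) in the libraries labelled mutant and 13.9, 16.7 and 19.3 FPKM in controls. Sstr4, not a member, was left out of this sum and of the shares below. It averaged 1.49 FPKM in the libraries labelled mutant and 1.67 FPKM in controls. The means of the sum were 12.8 ± 1.70 FPKM in the libraries labelled mutant and 16.4 ± 2.08 FPKM in controls (SD, n = 6 each), a difference of -3.64 FPKM (exact two-sided permutation test p = 0.0108, adjusted 0.0216). Most of this difference lay in Sstr3, whose mean FPKM was 4.61 in the libraries labelled mutant and 6.69 in controls. Within the sum, Sstr1 took a median of 51.5% in the libraries labelled mutant and 42.4% in controls, and Sstr3 took 36.7% and, in controls, 40.2%. Sstr5 took a median of 7.51% in the libraries labelled mutant and 11.5% in controls. The share of Sstr2 was 3.81% in the libraries labelled mutant and 3.73% in controls. These shares are a description and were not tested. In the libraries numbered 0 the FPKM per CPM differed from the other libraries by gene. Relative to the others it was 1.13 for Sstr1, 1.11 for Sstr2, 0.93 for Sstr3 and 1.03 for Sstr5. The FPKM were used as deposited, so this enters the sum, the shares and the order of levels below.

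**Figure D3:**
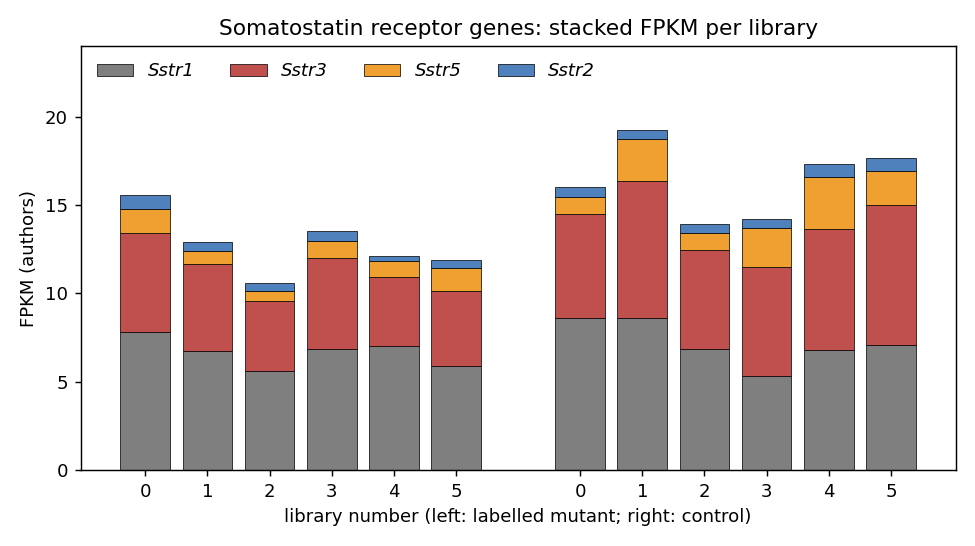
Stacked FPKM (authors' values) of the 4 somatostatin receptor members (without Sstr4) in each library, libraries labelled mutant 0 to 5 on the left and controls 0 to 5 on the right. The sums run from 10.6 to 15.6 FPKM in the libraries labelled mutant and from 13.9 to 19.3 FPKM in controls, and Sstr1 and Sstr3 make up most of every bar.

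Drd2 encodes the D2 dopamine receptor of lactotropes and melanotropes and was the most abundant member. It had 25.9, 32.0 and 35.4 CPM (lowest, median, highest) in the libraries labelled mutant and 28.9, 34.0 and 36.8 CPM in controls. The groups overlapped widely, with a log2 fold change of -0.08 and a standard error of 0.0710 (edgeR adjusted p = 0.545). Set against Pomc, the hormone precursor gene of corticotropes and melanotropes, the ratio did differ. Pomc itself had 7671 ± 630 CPM in the libraries labelled mutant and 6791 ± 1062 CPM in controls (SD, n = 6 each) and did not pass (edgeR adjusted p = 0.307). The log2 ratio of Drd2 to Pomc was -8.03 to -7.79 in the libraries labelled mutant and -7.84 to -7.40 in controls, a difference of -0.27 (exact two-sided permutation test p = 0.00433, adjusted 0.0173). Neither gene passed alone, so the ratio does not tell which of them moved. Of 5 tested melanotrope markers 1 was lower (Pax7), of 3 lactotrope markers 1 (Prlr) and of 6 corticotrope markers 1 (Neurod1). In these lists 0 were higher. Among all genes tested 2.75% were called lower and 4.3% higher.

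Drd4, which encodes the D4 dopamine receptor, was barely detected. It had 7 to 15 fragments per library labelled mutant and 8 to 19 per control, or 0.199 ± 0.0551 CPM in the libraries labelled mutant and 0.279 ± 0.0812 CPM in controls (SD, n = 6 each). In the fit without the level filter its log2 fold change was -0.48 with a standard error of 0.251 (edgeR adjusted p = 0.317).

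Per length, the order of the members was the same by the medians of both groups. Median FPKM was 22.9 for Drd2 in the libraries labelled mutant and 24.3 in controls, and Drd2 stood above Sstr1 in all 12 libraries without overlap of the ranges. Sstr1 followed with 6.81 FPKM in the libraries labelled mutant and 6.96 FPKM in controls, then Sstr3 with 4.57 and, in controls, 6.49 FPKM. Sstr1 stood above Sstr3 in 6 of 6 libraries labelled mutant but in 3 of 6 controls, where the order was therefore not settled. Mtnr1a had a median of 2.50 FPKM in the libraries labelled mutant and 5.84 FPKM in controls, and Sstr5 had 0.962 FPKM in the libraries labelled mutant and 2.06 FPKM in controls. Sstr2 (0.457 FPKM in the libraries labelled mutant, 0.559 in controls) and Drd4 (0.152 FPKM in the libraries labelled mutant, 0.213 in controls) came last. Below Sstr1 each of these genes stood above the next in every library, although the ranges over all 12 libraries overlapped.

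Of the remaining receptor genes of these families, Sstr4 passed the level filter and the others in the table did not. Sstr4, a somatostatin receptor gene, had 1.79 ± 0.550 CPM in the libraries labelled mutant and 1.96 ± 1.07 CPM in controls (SD, n = 6 each) and did not pass (edgeR adjusted p = 0.846). The D1-class gene Drd1a had 12 to 29 fragments per library labelled mutant and 13 to 23 per control. Drd3 and Drd5 reached at most 5 fragments in any library. Mtnr1b, the gene of the MT2 melatonin receptor, had 1 fragment in all libraries labelled mutant together and 0 in the controls. Gpr50, a melatonin receptor relative that does not bind melatonin, had 37 to 74 fragments per library labelled mutant and 52 to 88 per control, with a log2 fold change of -0.38 (edgeR adjusted p = 0.173, no level filter). Of the ligand genes, Sst (somatostatin) had 9 to 19 fragments per library labelled mutant and 15 to 24 per control, with a log2 fold change of -0.71 (edgeR adjusted p = 0.101, no level filter). Cort, from the same ligand list, had a log2 fold change of 0.001 (edgeR adjusted p = 0.9985, no level filter). For Th, also from that list, it was -0.23 (edgeR adjusted p = 0.704). None of these ligand genes passed.

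The signalling genes around the receptors were taken from 12 lists, which hold 139 genes, 100 of them tested. Lower calls were made for 8 of these 100 and higher calls for 0, against 2.75% lower and 4.3% higher among all genes tested, and the median log2 fold change was -0.02. Gnrhr, described above, is one of the 8. Among 17 tested genes for Gi/o alpha, beta and gamma subunits 2 were lower. Gnaz, which encodes the inhibitory alpha subunit Gz, had 21.5 ± 1.77 CPM in the libraries labelled mutant and 29.6 ± 4.24 CPM in controls (SD, n = 6 each), with no overlap between the groups and a log2 fold change of -0.46 (edgeR adjusted p = 0.00535). Gnb5, a beta subunit that pairs with regulators of G protein signalling, had a log2 fold change of -0.21 (edgeR adjusted p = 0.0193). The other 15 lay between -0.17 and 0.18.

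Downstream of the G proteins, 1 of 8 adenylyl cyclase genes and 1 of 11 cyclic AMP phosphodiesterase genes were lower, against 2.75% of all genes tested. The cyclase gene Adcy5, whose product is inhibited by Gi, had 78.9 ± 10.2 CPM in the libraries labelled mutant and 103 ± 15.2 CPM in controls (SD, n = 6 each), and its log2 fold change was -0.38 (edgeR adjusted p = 0.0418). Pde3b, whose product degrades cyclic AMP, had 25.3 ± 1.43 CPM in the libraries labelled mutant and 30.7 ± 0.941 CPM in controls (SD, n = 6 each), with no overlap and a log2 fold change of -0.28 (edgeR adjusted p = 0.000946). Of 17 genes for receptor desensitisation and RGS proteins, 1 was lower: Adrbk1, which encodes a G protein-coupled receptor kinase, with a log2 fold change of -0.13 (edgeR adjusted p = 0.0450). The other 16 lay between -0.96 and 0.19. The value of -0.96 belongs to Rgs4, a gene for an RGS protein that shortens Gi/o signals, named here after its values were seen. It had 20.9 ± 5.40 CPM in the libraries labelled mutant and 40.6 ± 18.7 CPM in controls (SD, n = 6 each) and did not pass (edgeR adjusted p = 0.0530). Of 10 melatonin and photoperiod genes 1 was lower, the circadian transcription factor gene Clock, with a log2 fold change of -0.17 (edgeR adjusted p = 0.0475). None of 2 potassium (GIRK) channel genes, 9 protein kinase A and CREB genes or 3 ligand synthesis and storage genes passed. Nor did any of 5 genes listed downstream of somatostatin receptors (Ptpn6, Ptpn11, Ptprj, Cdkn1b and Plagl1).

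Receptors outside these families were counted in the same way. Of 9 tested receptor genes for stimulatory releasing factors 2 were lower, Gnrhr and Trhr, the thyrotropin-releasing hormone receptor gene. Among all genes tested 2.75% were called lower and 4.3% higher. Gnrhr is also in the gonadotrope marker list and Trhr in the thyrotrope list, so the same calls are counted there. Trhr had 10.4 ± 1.46 CPM in the libraries labelled mutant and 14.1 ± 2.32 CPM in controls (SD, n = 6 each), and its log2 fold change was -0.43 (edgeR adjusted p = 0.0417). The other 7 stimulatory receptors lay between -0.18 and 0.09. Of 8 other tested Gi/o-coupled receptor genes 0 passed, and their log2 fold changes lay between -0.30 and 0.29.

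**Figure D4:**
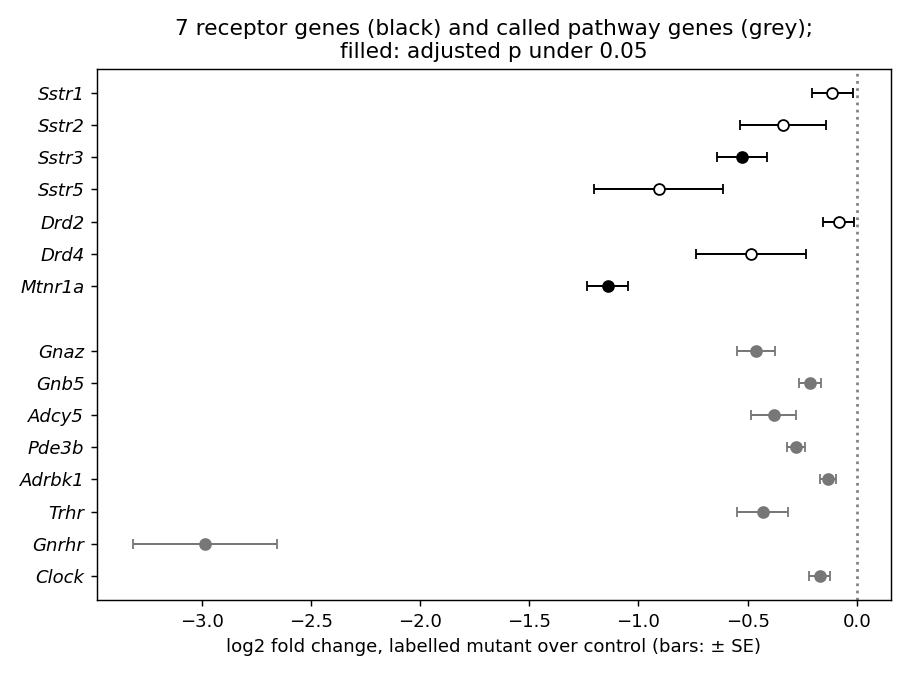
Log2 fold change (libraries labelled mutant over controls, n = 6 each) of the 7 receptor genes, in black, and of the 8 pathway genes that passed, in grey; bars are ± SE and filled points have an edgeR adjusted p under 0.05. The points run from -0.08 for Drd2 to -2.99 for Gnrhr, and Sstr2 and Drd4 come from the fit without the level filter. The grey genes were picked because they were called. No pathway gene was called higher, so their side of 0 is no separate result. Over all 100 tested pathway genes the median log2 fold change was -0.02.

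Within the groups, the 5 tested members did not move as one. The correlation of their deviations from the group mean, over 12 libraries that share depth and scaling, was -0.02 to 0.61 over the 10 pairs, with the highest value for Sstr1 and Drd2. The 3 named genes whose deviations were most like those of Mtnr1a were Lrrc29 (r = 0.94), Dhx9 (r = 0.91) and Aak1 (r = 0.90). For Sstr3 they were Fut1 (r = 0.95), Cxxc5 (r = 0.94) and Invs (r = 0.93), and for Sstr5 they were Rps6kc1 (r = 0.96), Gnat2 (r = 0.94) and Sdhaf1 (r = 0.93). For Sstr1 they were Nap1l5 (r = 0.95), Elavl4 (r = 0.94) and Aftph (r = 0.90). For Drd2 the nearest was Pcsk2, which encodes a prohormone convertase (r = 0.90), followed by Ocrl (r = 0.86) and Rps4y2 (r = 0.85). These are the highest values out of a search over the 15246 genes tested, less predicted, clone and RIKEN names, and are a description.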

How the data were processed

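RNA was sequenced in 6 libraries labelled mutant and 6 control libraries, grouped by the genotype in their labels. Per the labels' protocols libraries were made with a TruSeq RNA kit v2. The submitters' processing notes name Cuffdiff 2.1.1, Cufflinks, Bowtie2 2.1.0, TopHat2 2.0.9 and FastQC 0.10.1, with build mm10. Per the file headers, the authors deposited FPKM and raw fragment numbers, here called estimated counts, for each library. Of the fragment numbers, 89.99% to 90.41% of those above 0 in a library were whole, and all were rounded. Another 12 columns, of scaled fragments, stayed unused. The authors' deposited table gives FPKM per group, a log2 fold change and a q-value, and marks genes on q (0.05) and fold (1.5).

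The 15246 genes whose FPKM reached 1 in 6 or more libraries were tested with edgeR 4.0.16 (R 4.3.3), quasi-likelihood, TMM scaling, no covariate, Benjamini-Hochberg adjusted p under 0.05. Members under the filter were taken from a fit without it. Ratios used fragments plus 0.5 and exact permutation tests over the 924 splits of 6 against 6. All members, called genes of the pathway lists, ratio partners and the 3 genes most like each tested member were named. Members and lists were chosen with earlier results of these data known. On counts simulated for this comparison (15246 genes, 50 per fold), the share recovered by edgeR was 46% for 1.25-fold, 88% for 1.5-fold, 100% for 2-fold and 98% for 4-fold changes, and 1 of 15046 unchanged genes was called. The changed genes of the simulation were drawn at random from all genes tested. The shares recovered therefore do not describe a single member, such as the low and variable Sstr5. Alternatives were other filters and scalings, DESeq2 1.42.0, limma 3.58.1, a Y-linked covariate, leaving libraries out and a block for the replicate number.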

Additional observations from a re-analysis of the deposited data

How the results depend on the processing

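Mtnr1a kept its direction and its call in 12 of 12 other settings (log2 fold change -1.19 to -0.90) and with each of the 12 libraries left out (-1.19 to -1.09). Sstr3 kept both in 13 of 13 settings (-0.66 to -0.45) and in 12 of 12 leave-outs (-0.61 to -0.48, edgeR adjusted p up to 0.0367). For every member 1 of the other settings left out only the library labelled mutant 0, whose Xist was above its Y-linked genes. That fit is also 1 of the 12 leave-outs and is in both counts. Sstr5 passed in 2 of 12 other settings, under DESeq2 (-0.90, DESeq2 adjusted p = 0.0236) and without both libraries numbered 0 (-1.15, edgeR adjusted p = 0.0331). With 1 library left out its log2 fold change was -1.05 to -0.73 (edgeR adjusted p = 0.0355 to 0.180), and it passed without control 0 or control 2. Sstr1, Sstr2, Drd2 and Drd4 passed in none of their settings. The Mtnr1a to Gnrhr, Drd2 to Pomc, Sstr3 to Sstr1 and Sstr3 to Gh ratios and the summed FPKM kept an exact p under 0.05 in every setting run, before adjustment. Of these, both Sstr3 ratios were added after the values had been seen. The log2 ratio of Sstr5 to Gh differed by -0.72 (exact p = 0.0794) without the 3 libraries with next to no Y-linked fragments and by -0.84 to -0.56 (exact p = 0.0173 to 0.0931) with 1 library left out, and the cause was not tested.

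Genes called higher, 656 in all, were 283 with FPKM of at least 5 (fewer genes tested), 379 without those 3 libraries (fewer samples, chosen after the data were seen) and 485 to 694 with 1 library left out. Genes called lower, 419 in all, were 192 with FPKM of at least 5, 144 without those 3 libraries, 807 under DESeq2, 216 and 214 under limma with 1 and 0.1 added to the FPKM, and 197 to 443 with 1 library left out. The lowest came without control 1, and leaving out libraries labelled mutant 1 to 4 or controls 1, 3 or 4 each moved it by over 1.5 times.

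With the replicate number as a block, Mtnr1a had a log2 fold change of -1.14 (edgeR adjusted p = 0.000149), Sstr3 -0.53 (0.0214) and Sstr5 -0.85 (0.0993), with 672 genes higher and 401 lower, so no member's call changed. Deviations of same-numbered libraries correlated at -0.06 to 0.34, and the numbers were not taken to pair them. Sstr2 and Drd4 rest on no more than 31 fragments per library, and the part of depth in their results was not tested.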
